A study of Mus musculus with 12 samples.

Results

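The genes described here encode the costimulatory pair CD70 and CD27 and the first steps of interferon-gamma signalling. They are 8 genes chosen by name, Cd70, Cd27, Ifng, Ifngr1, Ifngr2, Jak1, Socs1 and Socs3, of 19935 genes measured by probe sets that carry a single gene symbol. All 8 were measured. Socs3 had 2 probe sets, which were averaged, and each of the other 7 genes had 1.

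CD70 is a ligand of the TNF superfamily that appears on activated lymphocytes and dendritic cells, and its receptor CD27 is carried by T cells, NK cells and some B cells. Binding of CD70 to CD27 costimulates T cells, which then can release interferon-gamma. That cytokine binds a receptor made of a ligand-binding chain (Ifngr1) and an accessory chain (Ifngr2), and the kinases Jak1 and Jak2 on those chains pass the signal on to target promoters, many of which hold a GAS element. Socs1 and Socs3 are inducible inhibitors of such kinases and close a negative feedback loop.

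The study measured total RNA with 1-colour whole-transcript arrays in bone marrow cells enriched with magnetic beads for CD71, a surface marker of red cell precursors that takes up iron. The 12 arrays came from male C57BL/6J mice of 10 to 12 weeks in 4 groups of 3 mice. The CD70TG*Ifng-/- mice carried a CD70 transgene and lacked Ifng, the CD70TG mice carried the transgene with Ifng intact, the Ifng-/- mice lacked Ifng without a transgene, and the WT mice had neither change. Each array stands for 1 mouse by its label. The labels name 1 transgenic clone for the CD70TG mice and state neither the promoter that drives the transgene nor which part of Ifng was removed.

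Each deposited log2 value is relative to the gene's own median over the 12 arrays, so a value shows where an array stands for that gene and not how abundant the RNA was. Differences between group means were tested with limma, with Benjamini-Hochberg adjustment over all 19935 genes and a threshold of 0.05, and errors of differences are standard errors with 3 arrays a group. The rounding of the deposited numbers was used to tell whether a probe set lay at a log2 level of 8 or more before centring. All 8 measured red cell precursor markers, Tfrc among them, lay in this higher class, as did Jak1, against 13.8% of all genes. The other 7 genes described here, and every measured T cell, NK cell, B cell and macrophage marker, lay outside that class. All probe sets outside it are called the lower class here. That class also takes in probe sets with fewer than 6 values close enough to 0 to judge, whatever their level. A place in it therefore does not show a level below 8, least of all for genes with large differences. The first principal component of all genes split the arrays by transgene, with scores of 6.39 to 21.1 in the 6 transgenic mice and -24.6 to 3.34 in the other 6, of which Ifng-/- 2 scored highest.

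Cd70 (chr17:57145997-57149777, GRCm38.p6) had its highest means in the mice with the transgene, with or without Ifng, but no difference passed the test over all genes. Its log2 values on arrays 1, 2 and 3 were 0.05, 0.34 and 0.26 in CD70TG*Ifng-/-, 0.01, 0.05 and -0.01 in CD70TG mice, -0.09, -0.49 and 0.04 in Ifng-/-, and -0.24, -0.38 and -0.12 in WT. All CD70TG arrays lay above all WT arrays, as for 17.6% of all genes, and all CD70TG*Ifng-/- arrays lay above all Ifng-/- arrays, as for 9.32% of all genes. The margin without Ifng was narrow, since CD70TG*Ifng-/- 1 lay next to Ifng-/- 3, and the CD70TG and Ifng-/- arrays overlapped.

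The difference in Cd70 was 0.26 ± 0.12 in CD70TG against WT (95% interval 0.0064 to 0.52, adjusted p = 0.180). It was 0.39 ± 0.12 in CD70TG*Ifng-/- against Ifng-/- (0.14 to 0.65, adjusted p = 0.135) and 0.46 ± 0.12 in CD70TG*Ifng-/- against WT (adjusted p = 0.0756). The transgene effects in the 2 Ifng backgrounds were not distinguishable, with an interaction of -0.13 ± 0.17 (adjusted p = 0.661). High to low, the group means ran CD70TG*Ifng-/-, CD70TG, Ifng-/-, WT, and none of the 3 steps between neighbours passed the test (adjusted p = 0.585, 0.589 and 0.824). With estimated array weights the difference in CD70TG against WT passed (0.29, adjusted p = 0.0287), and that in CD70TG*Ifng-/- against WT passed under 4 of 21 alternatives. Among these 4 was the fit without CD70TG 3 and Ifng-/- 2 (adjusted p = 0.0151), a choice made after seeing the data. The labels do not say which Cd70 sequence the transgene holds, so this probe set is not a check of its presence.

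Cd27, the receptor of CD70 (chr6:125232620-125237136), gave no difference past the test. Its log2 values on arrays 1, 2 and 3 were -0.08, -0.09 and 0.09 in CD70TG*Ifng-/-, -0.07, -0.04 and 0.17 in CD70TG mice, 0.11, -0.23 and 0.04 in Ifng-/-, and -0.02, 0.02 and 0.08 in WT. The groups overlapped in every pair. The difference in CD70TG against WT was -0.01 ± 0.10 (95% interval -0.21 to 0.20, adjusted p = 0.965), and across the 6 pairs of groups the lowest adjusted p was 0.811. The sign in CD70TG against WT and in CD70TG*Ifng-/- against Ifng-/- turned with the scaling of the arrays.

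No CD27 signalling gene analysed here passed the test, and Traf3, Nfkb1 and Chuk were not among those analysed. Over the alternatives 0 to 1 gene of the list rose and 0 fell in CD70TG against WT. In CD70TG*Ifng-/- against Ifng-/- 0 to 1 rose and 0 to 2 fell. Of 13 measured CD27 signalling genes (TRAF and cIAP adaptors, Siva1 and NF-kappaB kinases and subunits), none passed in CD70TG against WT, where 10.9% of all genes did, and 2 had an unadjusted p under 0.05, beside 26.3% of all genes. Their median difference was 0.11, beside -0.02 over all genes. Traf2, an adaptor that binds the CD27 tail, differed by 0.19 ± 0.08 (adjusted p = 0.134), and Siva1, a CD27-binding protein linked to apoptosis, differed by 0.21 ± 0.09 (adjusted p = 0.163). Without Ifng none of the 13 passed in CD70TG*Ifng-/- against Ifng-/- either, 5 had an unadjusted p under 0.05, beside 12.1% of all genes, and the median was -0.08 beside 0.04 over all genes.

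The other TNF superfamily pairs of T cell costimulation (OX40, 4-1BB, CD40, CD30, HVEM and GITR with their ligands) gave no call among 12 measured genes in either comparison. Of all genes 10.9% passed in CD70TG against WT and 2.5% in CD70TG*Ifng-/- against Ifng-/-. At an unadjusted p under 0.05 there was 1 such gene in CD70TG against WT and 0 in CD70TG*Ifng-/- against Ifng-/-, beside 26.3% and 12.1% of all genes. The lowest p in CD70TG against WT belonged to Tnfsf14, the HVEM ligand LIGHT, at -0.27 ± 0.11 (adjusted p = 0.125). The medians of the list were -0.07 in CD70TG against WT and 0.09 in CD70TG*Ifng-/- against Ifng-/-, beside -0.02 and 0.04 over all genes.

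Markers of the cells that carry CD27 differed in part, in a comparison where 2.7% of all genes fell and 8.23% rose. Of 12 T cell markers, 2 fell in CD70TG against WT, the coreceptor gene Cd4 (-0.52 ± 0.09, adjusted p = 0.00408) and the interleukin-7 receptor gene Il7r (-0.69 ± 0.13, adjusted p = 0.00481), both of which some other marrow cells also carry. The mean log2 value of the 12 markers lay between -0.15 and 0.02 in CD70TG and between 0.07 and 0.12 in WT. None of 9 NK and cytotoxic markers passed in that comparison, where Nkg7, a cytotoxic granule gene, differed by 0.85 ± 0.27 (adjusted p = 0.0597). Most of that list lay on the other side, with 3 of the 9 above 0 and a median of -0.04, beside -0.02 over all genes. Gzma, a granzyme gene, had log2 values of -0.109 to 0.008 in CD70TG and 0.055 to 0.11 in WT. Of 13 B cell markers 10 fell in CD70TG against WT, with a median of -0.69. In bulk RNA of this kind fewer cells of a type and less RNA per cell cannot be told apart, and the part of these cells in the Cd70 and Cd27 values was not tested.

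**Figure D1:**
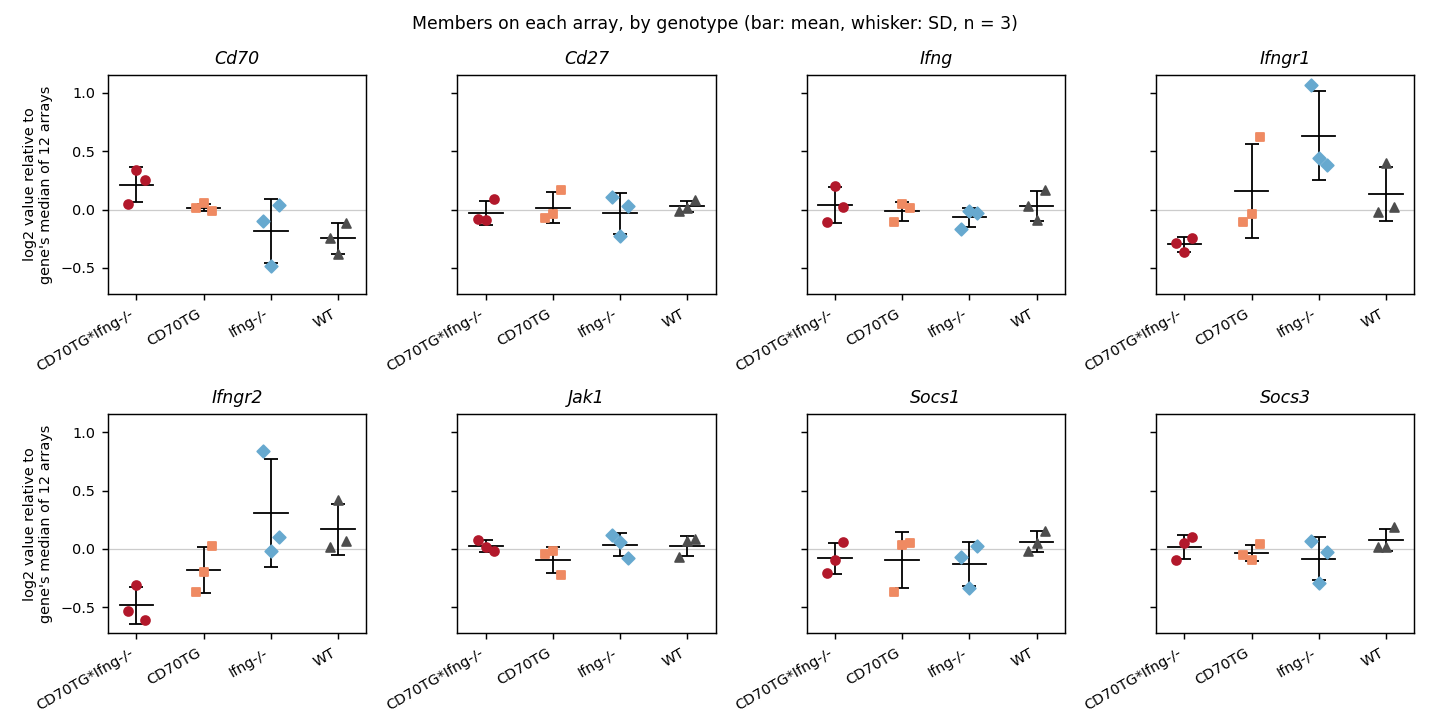
Log2 value of each of the 8 genes relative to its median over the 12 arrays (vertical axis), by genotype, with 1 point per array, bars for means and whiskers for SD (n = 3). The Cd70 means lie highest in the 2 groups with the transgene, Ifngr1 and Ifngr2 lie lowest in CD70TG*Ifng-/-, and Cd27, Ifng, Jak1, Socs1 and Socs3 overlap between most groups.

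Ifng (chr10:118441046-118445894) did not separate the genotypes. Its 12 log2 values lay between -0.16 and 0.20, and the groups overlapped in every pair. The difference was 0.05 ± 0.09 in CD70TG*Ifng-/- against CD70TG (95% interval -0.15 to 0.25, adjusted p = 0.871) and -0.10 ± 0.09 in Ifng-/- against WT (-0.30 to 0.10, adjusted p = 0.632). The probe set lay in the lower level class, and its position relative to the deleted part is not known, so it is no check of the labels.

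Of 11 genes for inducers of interferon-gamma and their receptors (interleukins 12, 18 and 27, their receptors, Tbx21 and Eomes), 1 fell with the transgene in each Ifng background, and it was the same gene, Il18. Of all genes 2.7% fell in CD70TG against WT and 2.35% in CD70TG*Ifng-/- against Ifng-/-. Il18 encodes a cytokine that macrophages release and that drives interferon-gamma production in T and NK cells. Its log2 values were -0.69, -0.29 and -0.58 in CD70TG*Ifng-/-, -0.35, -0.45 and -0.45 in CD70TG mice, 0.66, 0.69 and 0.75 in Ifng-/-, and 0.68, 0.99 and 0.29 in WT. The arrays with and without the transgene did not overlap. Il18 fell by 1.07 ± 0.14 in CD70TG against WT (adjusted p = 3.94e-04) and by 1.22 ± 0.14 in CD70TG*Ifng-/- against Ifng-/- (adjusted p = 9.46e-05), and both calls held under all 21 alternatives. Monocyte and macrophage markers fell in the same comparisons, 13 of 14 in each, and their part in the Il18 result was not tested.

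The 2 receptor chains gave the only calls among the 8 genes. Both fell in CD70TG*Ifng-/- against Ifng-/-, Ifngr1 to 0.525 times and Ifngr2 to 0.579 times the Ifng-/- level. In that comparison 2.35% of all genes fell and 2.5% changed in either direction.

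Ifngr1, the ligand-binding chain (chr10:19591949-19610229), had log2 values of -0.29, -0.36 and -0.24 in CD70TG*Ifng-/-, -0.10, -0.04 and 0.62 in CD70TG mice, 1.07, 0.44 and 0.38 in Ifng-/-, and -0.02, 0.40 and 0.02 in WT. The CD70TG*Ifng-/- arrays were the 3 lowest of the 12, and Ifng-/- 1 and CD70TG 3 were the 2 highest. Ifngr1 averaged -0.30 ± 0.06 in CD70TG*Ifng-/- and 0.63 ± 0.38 in Ifng-/- (SD, n = 3 each), a difference of -0.93 ± 0.19 (95% interval -1.35 to -0.52, adjusted p = 0.0167). The call was lost without Ifng-/- 1 (-0.71, adjusted p = 0.0614) and without CD70TG*Ifng-/- 1, 2 or 3 (adjusted p = 0.0570, 0.0824 and 0.0612).

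With Ifng intact Ifngr1 differed by no more than the spread between mice, at 0.03 ± 0.19 in CD70TG against WT (95% interval -0.39 to 0.44, adjusted p = 0.948). The sign of that difference turned without CD70TG 3 (-0.20), without WT 1 (-0.051) and without WT 3 (-0.031). The test of the difference between the 2 transgene effects gave 0.96 ± 0.27 (adjusted p = 0.0876) and missed the threshold. Ifng loss without the transgene went with a higher mean, 0.50 ± 0.19 in Ifng-/- against WT (adjusted p = 0.301), and Ifng loss with the transgene with a lower one, -0.46 ± 0.19 in CD70TG*Ifng-/- against CD70TG (adjusted p = 0.388). High to low, the means ran Ifng-/-, CD70TG, WT, CD70TG*Ifng-/-, and no step between neighbours passed (adjusted p = 0.299, 0.948 and 0.291).

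Ifngr2, the accessory chain (chr16:91547059-91564007), had log2 values of -0.53, -0.31 and -0.61 in CD70TG*Ifng-/-, -0.37, -0.20 and 0.02 in CD70TG mice, 0.84, -0.02 and 0.10 in Ifng-/-, and 0.02, 0.42 and 0.07 in WT. The CD70TG*Ifng-/- arrays lay below all Ifng-/- and all WT arrays, and Ifng-/- 1 stood alone at the top. Ifngr2 averaged -0.48 ± 0.16 in CD70TG*Ifng-/- and 0.31 ± 0.47 in Ifng-/- (SD, n = 3 each), a difference of -0.79 ± 0.19 (95% interval -1.19 to -0.39, adjusted p = 0.0352). This call was lost under 9 of 21 alternatives, among them leaving out Ifng-/- 1, which also moved the difference to -0.52 (adjusted p = 0.0874), any one of the CD70TG*Ifng-/- arrays (adjusted p = 0.0620 to 0.164), WT 3 (adjusted p = 0.0530) or CD70TG 2 (adjusted p = 0.0565). With Ifng intact the difference was -0.35 ± 0.19 in CD70TG against WT (-0.75 to 0.04, adjusted p = 0.246), and the interaction was 0.44 ± 0.26 (adjusted p = 0.344).

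Against WT, Ifngr2 differed by -0.65 ± 0.19 in CD70TG*Ifng-/- (adjusted p = 0.101) and Ifngr1 by -0.43 ± 0.19 (adjusted p = 0.291). The Ifngr2 difference there passed under 5 of 21 alternatives, quantile normalization (adjusted p = 0.0380) among them. So was the fit without CD70TG 3 and Ifng-/- 2 (adjusted p = 0.0396), chosen after seeing the data. High to low, the means of Ifngr2 ran Ifng-/-, WT, CD70TG, CD70TG*Ifng-/-, and no step between neighbours passed (adjusted p = 0.752, 0.246 and 0.590). With CD70TG 3 and Ifng-/- 2 left out together, a choice made after seeing the data, Ifngr1 differed by -1.03 (adjusted p = 0.00231) and Ifngr2 by -0.95 (adjusted p = 0.00729) in CD70TG*Ifng-/- against Ifng-/-.

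The spread between mice of one genotype was wide for these 2 genes. The within-group SD was 0.30 for Ifngr1 and 0.29 for Ifngr2, at percentiles 98.6 and 98.2 of all genes, against a median of 0.114. Over the 12 arrays the values of Ifngr1 and Ifngr2 had a Pearson r of 0.87, as a description of arrays that share groups and a common normalization.

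**Figure D2:**
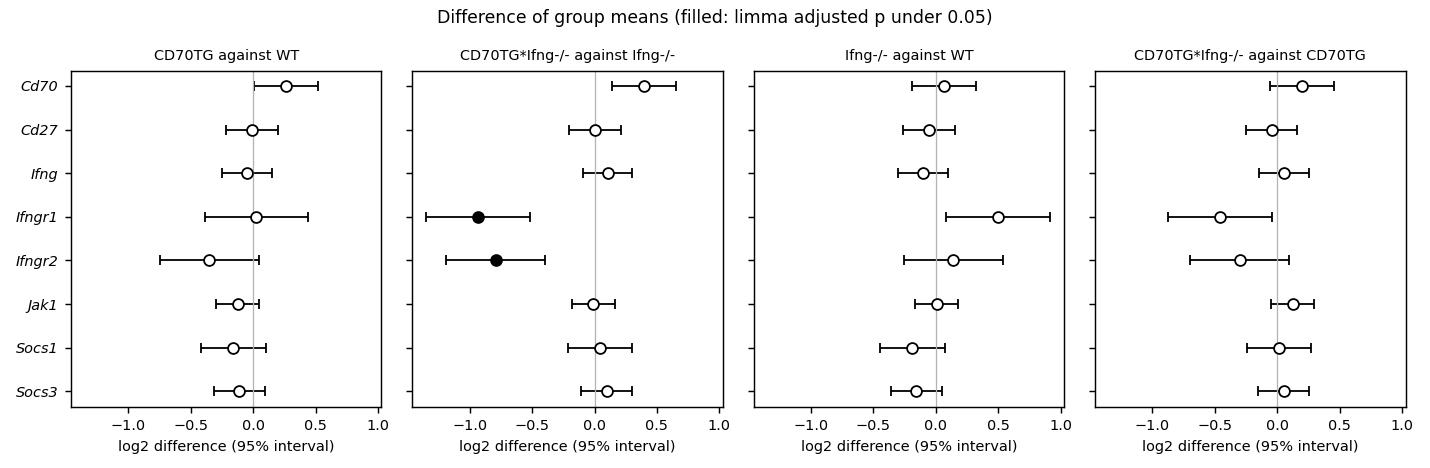
Log2 difference of group means with its 95% interval (horizontal axis) for each of the 8 genes in 4 comparisons, with filled points for limma adjusted p under 0.05. Only Ifngr1 and Ifngr2 in CD70TG*Ifng-/- against Ifng-/- are filled, at -0.93 and -0.79.

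Since the receptor chains moved together, the bases just before their transcription starts are shown, from RefSeq on GRCm38.p6, at chr10:19591699-19591948 (+) for Ifngr1 and chr16:91546809-91547058 (+) for Ifngr2. Both are in lower case throughout because no searched motif was found in them.
Ifngr1: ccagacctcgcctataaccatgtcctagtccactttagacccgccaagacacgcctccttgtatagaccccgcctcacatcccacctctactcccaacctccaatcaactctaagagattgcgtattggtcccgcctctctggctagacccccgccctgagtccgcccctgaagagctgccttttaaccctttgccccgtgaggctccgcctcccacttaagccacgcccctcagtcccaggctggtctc
Ifngr2: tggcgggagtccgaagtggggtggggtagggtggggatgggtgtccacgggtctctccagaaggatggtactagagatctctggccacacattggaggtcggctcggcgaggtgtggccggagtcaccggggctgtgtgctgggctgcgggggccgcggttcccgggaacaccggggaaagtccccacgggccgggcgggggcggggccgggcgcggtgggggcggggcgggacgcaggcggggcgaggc
The motifs were the GAS letters TTCNNNGAA and the IRF letters GAAA, any 2 bases and GAAA again, each on both strands, in windows of 250 bases before to 50 after the start. Of 32851 such windows of all genes 8.298% held the first and 3.443% the second.

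Both receptor chains are carried by most marrow cells, and the values of myeloid markers are given beside theirs. The mean log2 value of 14 monocyte and macrophage markers was -1.31, -1.39 and -1.35 in CD70TG*Ifng-/-, -0.98, -0.93 and -0.69 in CD70TG mice, 1.55, 1.13 and 1.37 in Ifng-/-, and 0.76, 1.39 and 0.72 in WT. That of 10 neutrophil markers was -0.66, -0.0009 and -0.40 in CD70TG*Ifng-/-, -0.47, -0.07 and -0.35 in CD70TG mice, 2.05, -0.69 and 0.65 in Ifng-/-, and 1.11, 1.31 and 0.99 in WT. The macrophage markers split the arrays by transgene, whereas the neutrophil markers were highest on Ifng-/- 1, the top array of both receptor chains, and lowest on Ifng-/- 2.

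Of the 14 macrophage markers 13 fell in CD70TG*Ifng-/- against Ifng-/-, with a median of -2.75, led by Vcam1 (-4.21 ± 0.18, adjusted p = 2.31e-08) and Mrc1 (-3.53 ± 0.19, adjusted p = 6.41e-08). In that comparison 2.35% of all genes fell. None of the 10 neutrophil markers passed, 5 had an unadjusted p under 0.05, beside 12.1% of all genes, and the median was -0.97. Without CD70TG 3 and Ifng-/- 2 all 10 fell. In CD70TG against WT, where 2.7% of all genes fell, 13 of 14 macrophage markers also fell (median -1.77). There 4 of 10 neutrophil markers fell, or all 10 without those arrays and 0 to 10 over all alternatives.

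Over the 12 arrays Ifngr2 had a Pearson r above 0.8 with 10 of 14 macrophage and 8 of 10 neutrophil markers, and Ifngr1 with 1 of 14 and 0 of 10, as a description of arrays that share groups and normalization. Since the table holds no absolute level, no marker can be read as absent. The part of these cell types in the receptor results was not tested.

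**Figure D3:**
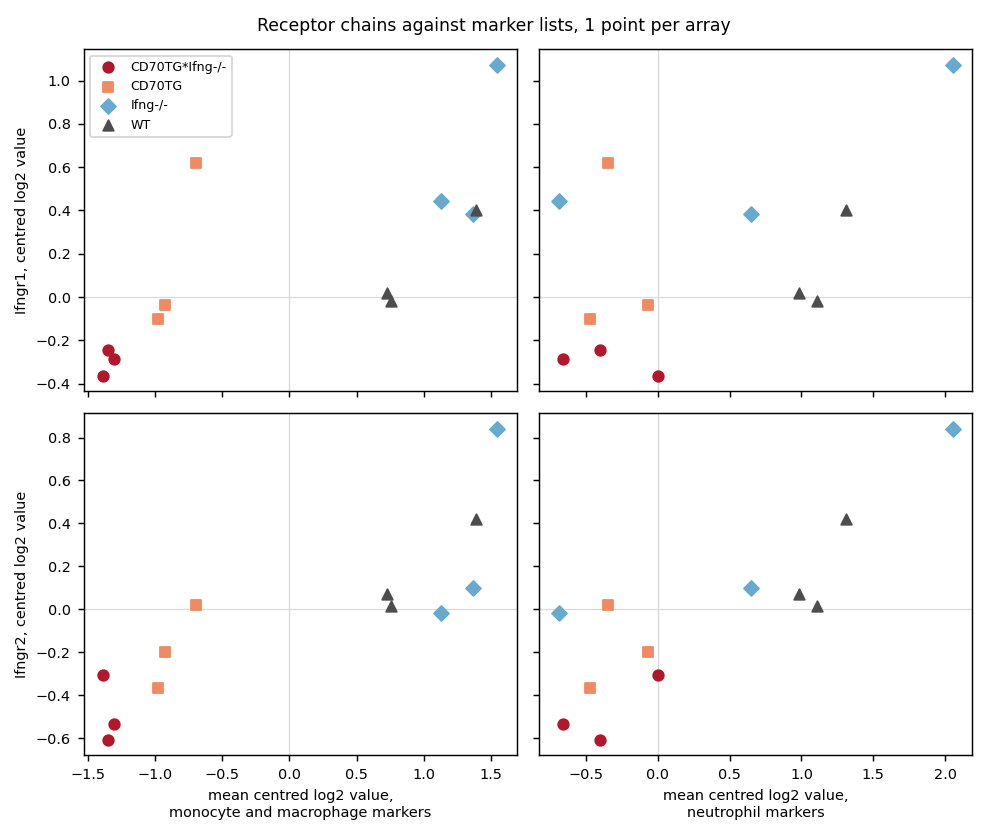
Centred log2 value of Ifngr1 (upper panels) and Ifngr2 (lower panels) against the mean centred log2 value of 14 monocyte and macrophage markers (left) or 10 neutrophil markers (right), with 1 point per array and a symbol per genotype. The CD70TG*Ifng-/- arrays lie low on both receptor chains, and Ifng-/- 1 lies at the top in each panel.

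Jak1, the kinase bound to Ifngr1 and to the receptors of many other cytokines (chr4:101151974-101265282), had the lowest within-group spread of the 8 genes. Its log2 values were 0.08, 0.02 and -0.02 in CD70TG*Ifng-/-, -0.05, -0.02 and -0.22 in CD70TG mice, 0.12, 0.06 and -0.08 in Ifng-/-, and -0.07, 0.06 and 0.09 in WT. CD70TG 3 lay lowest, and the other CD70TG arrays lay within the WT range. The CD70TG and CD70TG*Ifng-/- arrays did not overlap, as for 17.6% of all genes, but only by a narrow margin. CD70TG 2 stood at -0.021 and CD70TG*Ifng-/- 3 at -0.02. The difference was 0.12 ± 0.08 in CD70TG*Ifng-/- against CD70TG (95% interval -0.05 to 0.30, adjusted p = 0.612), -0.12 ± 0.08 in CD70TG against WT (-0.30 to 0.05, adjusted p = 0.352), and -0.01 ± 0.08 in CD70TG*Ifng-/- against Ifng-/- (-0.18 to 0.16, adjusted p = 0.973). When each array was centred within its level classes, Jak1 passed in CD70TG against WT at -0.27 (adjusted p = 0.0379).

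Chains of other receptor complexes that use Jak1 fell in part where the interferon-gamma receptor chains fell. Of 9 measured, none passed in CD70TG against WT, beside 10.9% of all genes. None had an unadjusted p under 0.05 there, beside 26.3%. Without Ifng 2 of the 9 fell with the transgene, beside 2.35% of all genes. In CD70TG*Ifng-/- against Ifng-/-, Il10ra, the ligand-binding chain of the interleukin-10 receptor, fell by 0.77 ± 0.13 (adjusted p = 0.00294), and its partner chain Il10rb, named after its value was seen, fell by 0.67 ± 0.13 (adjusted p = 0.0127). The median of the 9 was -0.19 in CD70TG*Ifng-/- against Ifng-/-, beside 0.04 over all genes.

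Neither feedback inhibitor rose with the transgene. Socs1 (chr16:10783808-10785536) had log2 values of -0.21, -0.09 and 0.06 in CD70TG*Ifng-/-, -0.37, 0.03 and 0.05 in CD70TG mice, -0.07, -0.34 and 0.02 in Ifng-/-, and -0.02, 0.05 and 0.16 in WT. The groups overlapped in every pair, with CD70TG 1 and Ifng-/- 2 the lowest arrays. The difference was -0.16 ± 0.12 in CD70TG against WT (95% interval -0.42 to 0.10, adjusted p = 0.431) and 0.05 ± 0.12 in CD70TG*Ifng-/- against Ifng-/- (-0.21 to 0.30, adjusted p = 0.907).

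Socs3 (chr11:117966079-117970336), which acts mainly on interleukin-6-type and G-CSF receptors, averaged over its 2 probe sets at -0.10, 0.05 and 0.10 in CD70TG*Ifng-/-, -0.06, -0.10 and 0.05 in CD70TG mice, 0.07, -0.29 and -0.03 in Ifng-/-, and 0.02, 0.02 and 0.19 in WT. The groups overlapped in every pair, and Ifng-/- 2 was the lowest array. The difference was -0.11 ± 0.10 in CD70TG against WT (95% interval -0.31 to 0.09, adjusted p = 0.495) and 0.10 ± 0.10 in CD70TG*Ifng-/- against Ifng-/- (-0.10 to 0.30, adjusted p = 0.712). The probe sets differed in spread and had a Pearson r of 0.68 over the 12 arrays, and each gave -0.11 in CD70TG against WT (adjusted p = 0.358 and 0.637 over 28815 probe sets).

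The rest of the receptor pathway was uneven in CD70TG against WT. Of 15 measured signalling genes 2 rose and none fell, beside 8.23% of all genes that rose, and the median was 0.13. Nmi, a partner of STAT proteins, rose by 1.02 ± 0.11 (adjusted p = 1.17e-04), and Irf1, a transcription factor that interferon-gamma induces, rose by 0.77 ± 0.13 (adjusted p = 0.00284). Stat3 differed by 0.49 ± 0.15 (adjusted p = 0.0577) and Stat2 by 0.37 ± 0.12 (adjusted p = 0.0651).

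Irf1 had log2 values of -0.34, -0.02 and -0.30 in CD70TG*Ifng-/-, 0.49, 0.95 and 0.95 in CD70TG mice, 0.12, -0.23 and -0.11 in Ifng-/-, and -0.06, -0.01 and 0.15 in WT. Nmi had -0.02, -0.38 and -0.22 in CD70TG*Ifng-/-, 0.68, 1.10 and 0.89 in CD70TG mice, 0.04, 0.01 and 0.18 in Ifng-/-, and -0.19, -0.20 and -0.01 in WT. For both genes the CD70TG arrays stood above all 9 others. Set against CD70TG, CD70TG*Ifng-/- mice had lower levels of these and of Stat3. Irf1 fell by 1.01 ± 0.13 (adjusted p = 7.56e-04), Nmi by 1.09 ± 0.11 (adjusted p = 1.21e-04) and Stat3 by 0.74 ± 0.15 (adjusted p = 0.0271).

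Without Ifng, 1 of the 15 fell with the transgene, beside 2.35% of all genes, and none rose. It was Irf9, the DNA-binding part of the type I interferon factor, named after its value was seen, at -0.51 ± 0.10 (adjusted p = 0.0116). Irf1 differed by -0.15 ± 0.13 (adjusted p = 0.689) and Nmi by -0.28 ± 0.11 (adjusted p = 0.320) in CD70TG*Ifng-/- against Ifng-/-. The interaction, the transgene effect with Ifng minus that without it, passed for 4 of the 15, where 1.61% of all genes passed in that direction, and for 0 of the 8 genes described here, beside 1.89% in either direction, of which 1 (Ifngr1) had an unadjusted p under 0.05.

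Of 14 interferon-gamma targets outside the pathway itself 12 rose in CD70TG against WT, where 8.23% of all genes rose. Their median was 1.00, led by the GTPase Iigp1 (3.15 ± 0.24, adjusted p = 7.17e-06). The other 2, Ciita and Irf8, differed by 0.10 ± 0.11 (adjusted p = 0.600) and -0.15 ± 0.15 (adjusted p = 0.553). None of the 14 rose in CD70TG*Ifng-/- against Ifng-/-, and the only one that fell was Irf8 (-0.74 ± 0.15, adjusted p = 0.0136). Socs1 and Socs3, which interferon-gamma induces in many cells, differed by -0.16 and -0.11 in CD70TG against WT, each below at least 13 of these 14 targets. The targets were listed with earlier results of these data known, so this rank is a description and no test.

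Bases before the starts of Irf1, Socs1 and Socs3 are given side by side, from RefSeq on GRCm38.p6, with GAS or IRF letters in capitals. They lie at chr16:10785537-10785786 (-) for Socs1, chr11:117969367-117969616 (-) for Socs3 and chr11:53769764-53770013 (+) for the first listed start of Irf1.
Socs1: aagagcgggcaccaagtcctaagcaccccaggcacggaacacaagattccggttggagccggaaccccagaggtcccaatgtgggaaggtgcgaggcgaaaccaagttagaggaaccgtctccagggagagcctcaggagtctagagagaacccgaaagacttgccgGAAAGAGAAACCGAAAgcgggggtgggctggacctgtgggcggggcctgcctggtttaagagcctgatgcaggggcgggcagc
Socs3: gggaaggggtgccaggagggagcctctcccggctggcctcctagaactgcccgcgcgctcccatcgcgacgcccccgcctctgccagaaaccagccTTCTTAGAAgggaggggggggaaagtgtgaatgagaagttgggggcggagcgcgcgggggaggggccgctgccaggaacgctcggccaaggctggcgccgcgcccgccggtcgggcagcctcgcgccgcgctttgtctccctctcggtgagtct
Irf1: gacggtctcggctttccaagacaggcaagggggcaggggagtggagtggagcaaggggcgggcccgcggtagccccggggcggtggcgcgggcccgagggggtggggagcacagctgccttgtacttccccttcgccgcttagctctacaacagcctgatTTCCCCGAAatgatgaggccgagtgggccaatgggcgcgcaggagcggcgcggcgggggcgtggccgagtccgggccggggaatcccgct
Counted from the start, the GAS letters began at -154 in Socs3 (TTCTTAGAA) and at -90 in Irf1 (TTCCCCGAA). The window of another listed start of Irf1, at chr11:53770223-53770522 (+), held neither motif. Socs1 held 2 overlapping IRF matches, GAAAGAGAAA at -83 and GAAACCGAAA at -77, and no GAS match in this window. Ifng also held GAS letters, and Cd27 and Jak1 held neither motif, so 2 of the 7 genes with a window held GAS letters, beside 9.554% of 27025 genes. A match is a run of letters and not a measured binding site, and its part in the differences was not tested.

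Of 6 other SOCS family genes, Cish, which Stat5 induces, rose in CD70TG against WT (0.40 ± 0.09, adjusted p = 0.0158), and Socs4 differed by 0.41 ± 0.15 (adjusted p = 0.0979). In that comparison 8.23% of all genes rose. Of 5 other Janus kinases and STATs, Stat5b (0.32 ± 0.08, adjusted p = 0.0210) and Stat5a (0.28 ± 0.07, adjusted p = 0.0275), which carry erythropoietin signals, rose in CD70TG against WT. Without Ifng neither Stat5 gene nor Cish passed, with differences of -0.12, 0.14 and 0.19 for Stat5b, Stat5a and Cish, while Stat6, the interleukin-4 signal transducer, fell (-0.45 ± 0.11, adjusted p = 0.0359). Of all genes 2.35% fell in CD70TG*Ifng-/- against Ifng-/-. The interactions did not pass for Stat5b (adjusted p = 0.0623), Stat5a (adjusted p = 0.446), Cish (adjusted p = 0.361) or Stat6 (adjusted p = 0.0826).

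**Figure D4:**
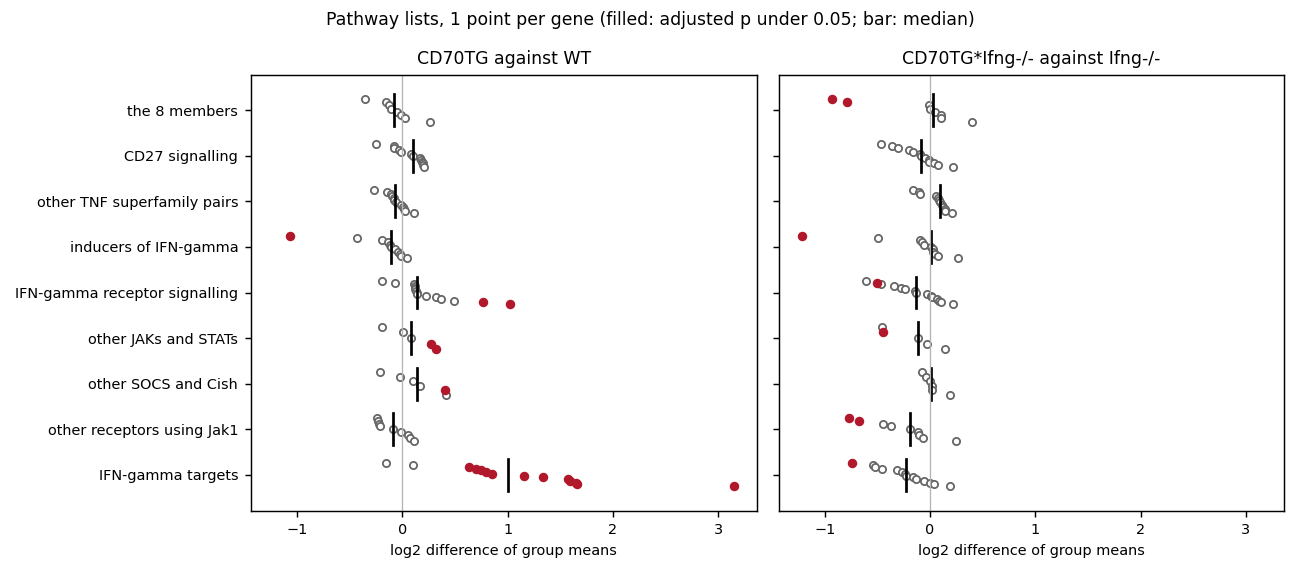
Log2 difference of group means (horizontal axis) of each measured gene in 9 lists, in CD70TG against WT (left) and CD70TG*Ifng-/- against Ifng-/- (right), with filled points for limma adjusted p under 0.05 and bars at list medians. The 12 filled targets lie right of 0 on the left, the 2 filled receptor chains lie left of 0 on the right, and CD27 signalling has no filled point.

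Counted over the 8 genes, 2 fell in CD70TG*Ifng-/- against Ifng-/- and none passed in the other comparisons. At an unadjusted p under 0.05 there were 3 in CD70TG*Ifng-/- against Ifng-/- (Cd70, Ifngr1 and Ifngr2), beside 12.1% of all genes. None of 8 passed in CD70TG against WT, beside 10.9% of all genes, and 1 (Cd70) had an unadjusted p under 0.05, beside 26.3%. None passed in Ifng-/- against WT, beside 0.00502%, and 1 (Ifngr1) had an unadjusted p under 0.05, beside 13.8%. The interaction had 1 (Ifngr1) at an unadjusted p, beside 20.3%.

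None of 8 passed in CD70TG*Ifng-/- against CD70TG, beside 1.41%, and 1 (Ifngr1) had an unadjusted p under 0.05, beside 11.2%. None passed in CD70TG*Ifng-/- against WT, beside 1.79%, and 3 (Cd70, Ifngr1 and Ifngr2) had an unadjusted p under 0.05, beside 16.1%. None passed in CD70TG against Ifng-/-, beside 3.25%, and 2 (Ifngr1 and Ifngr2) had an unadjusted p under 0.05, beside 12.6%.

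Groups did not overlap for 3 of 8 in CD70TG*Ifng-/- against Ifng-/-, Cd70, Ifngr1 and Ifngr2, beside 16.4% of all genes. Ifngr1 and Ifngr2 were lower there, as were 7.09% of all genes. It was 1 of 8 in CD70TG against WT, Cd70, beside 31.1%. The same 3 genes as without Ifng were apart in CD70TG*Ifng-/- against WT, beside 23.1%. Ifngr1 and, by a narrow margin, Jak1 were apart in CD70TG*Ifng-/- against CD70TG, beside 17.6%. All 8 overlapped in Ifng-/- against WT, where 18.6% of all genes did not, and in CD70TG against Ifng-/-, where 15.3% did not.

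By the likeness of their patterns over the 12 arrays the 8 genes did not all go together. The genes with the highest Pearson r to Ifngr2 were Cbfb (0.987), Hcls1 (0.987) and Cpne3 (0.984), and 217 genes exceeded 0.9. For Ifngr1 they were Vav1 (0.947), Rgs1 (0.945) and Capzb (0.943), with 48 genes above 0.9. Far fewer genes followed the others that closely, between 1 and 6 for Cd70, Cd27, Ifng, Jak1 and Socs1, and 25 for Socs3.

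The closest to Cd70 were Ift172 (0.930), Cfap100 (0.927) and Aqp4 (0.880), and to Cd27 Sema4d (0.935), Opalin (0.890) and Tnfrsf13b (0.886). Ifng was followed by Srpx (0.917), Npas4 (0.914) and C1qtnf3 (0.911), and Jak1 by Mxd1 (0.954), Fcho2 (0.891) and Dennd4a (0.883). For Socs1 the closest were Usp43 (0.931), Ccr4 (0.925) and Mboat1 (0.908), and for Socs3 Amer2 (0.946), Adam15 (0.942) and Got1l1 (0.937). These are the top 3 of all genes with an official symbol for each, so high values follow from the choice, and all arrays share 1 normalization.

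Within the 8, Ifngr1 and Ifngr2 had an r of 0.87, Socs3 and Cd27 0.80, Socs1 and Cd27 0.75, Socs3 and Socs1 0.73, and Ifngr1 and Cd70 -0.51. Array Ifng-/- 2 was the lowest of the 12 for Cd70, Cd27 and Socs3, and Ifng-/- 1 the highest for 3 genes, Ifngr1, Ifngr2 and Jak1.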

How the data were processed

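Total RNA of CD71-enriched bone marrow from 12 mice was measured on whole-transcript arrays, and the authors deposited 1 table of log2-scale values, made by RMA per the submitters' processing notes, with version and probe annotation not given in the sources used here. Log base and centring are stated by no label: the median of each probe set over the 12 arrays is 0 within 1e-06, the values run from -3.25 to 6.70, and log2 is taken from the usual output of RMA. Centred values keep no absolute level. The single-precision rounding of the values before centring placed 4373 of 28815 probe sets in a class at log2 8 or above. The lower class is all the others. It also holds probe sets with too few usable values and any with arrays on both sides of that level.

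Of 28815 probe sets 21780 carried 1 gene symbol in the platform annotation, 1605 several and 5430 none. By Entrez identifier 21689 matched RefSeq, and no symbol changed. Probe sets of a gene were averaged, which gave 19935 genes, 998 of them from several probe sets. Group means of all 4 genotypes were fitted in 1 limma model (limma 3.58.1, statmod 1.5.0, R 4.3.3) with 8 residual degrees of freedom, moderated t-statistics and Benjamini-Hochberg adjustment over all genes, and checked on simulated data. The number of arrays limits the precision. No batch is given in the labels or the table.

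The 8 genes and all gene lists were chosen with earlier results of these data known. Genes named besides the 8 came from the 4 of each pathway list, and the 2 of each marker list, with the smallest p in CD70TG against WT. Not all genes that this rule gave are printed. For each of the 8 genes the 3 genes of highest correlation were also named. Genes named outside these rules, after their values were seen, are Il10rb, Irf8, Ciita and Irf9. Promoters came from the RefSeq table on GRCm38.p6, which matched 7 of the 8 genes, and coordinates of genes from RefSeq on the same build. The labels do not say that replicate numbers pair the arrays. Deviations from group means of same-numbered arrays had correlations of -0.40 to 0.31, with 6 of 18 pairs above 0.1. Between arrays of different number they were -0.52 to 0.53, with 13 of 36 pairs above 0.1. With so few arrays a group, these values cannot exclude a pairing. Alternatives covered the choice of probe set, array scaling, the arrays in the fit, array weights, robust variance, the replicate number as a block, a level filter and leaving out each array. Counts of alternatives also include leaving out CD70TG 3 and Ifng-/- 2 together, chosen after seeing the data. Jak3, Traf3, Nfkb1, Chuk, Gbp2, Igtp and Il2rg of the pathway lists were not analysed here, and some results are not reported here.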

Additional observations from a re-analysis of the deposited data

Results flagged for a closer look

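None of the 8 genes had a transgene effect that differed between the Ifng backgrounds by the limma interaction test, the nearest being Ifngr1 (0.96 ± 0.27, adjusted p = 0.0876). By the same test 1.89% of all genes passed. Genes named from the pathway and marker lists were picked by their p in CD70TG against WT, or after their values were seen. That comparison is part of the interaction, so the count of named genes that pass is shaped by the choice. The values below are the log2 transgene effect with Ifng (CD70TG against WT) minus that without it (CD70TG*Ifng-/- against Ifng-/-). Of the named genes 10 passed. In receptor signalling they were Nmi (1.30, adjusted p = 0.00188), Irf1 (0.91, adjusted p = 0.0265), Stat3 (0.95, adjusted p = 0.0435) and Irf9 (0.63, adjusted p = 0.0414), the last named after its value was seen. The Nmi call held under 20 of 20 alternatives, that of Irf1 under 14 and that of Stat3 under 10 of 20, and that of Irf9 under 11 of 21.

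Among interferon-gamma targets they were the GTPases Iigp1 (3.11, adjusted p = 8.18e-04) and Gbp7 (2.18, adjusted p = 0.00147), the immunoproteasome subunit Psmb9 (1.83, adjusted p = 6.75e-04) and the peptide transporter Tap1 (1.91, adjusted p = 7.91e-04). These 4 calls held under 20 of 20 alternatives. Among markers they were Cd79a of the B cell receptor (-1.04, adjusted p = 0.0299), which fell more with Ifng, and the macrophage adhesion molecule Vcam1 (1.43, adjusted p = 0.0180), which fell more without it, with calls under 12 and 16 of 20 alternatives.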

How the results depend on the processing

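Over the 8 genes the count that passed was 0 in Ifng-/- against WT and in the interaction under every alternative run. In CD70TG*Ifng-/- against Ifng-/- it was 1 instead of 2 with only the groups compared in the fit and with robust variance, and 0 to 2 without 1 array each. In CD70TG against WT it became 1 with centring within level classes (Jak1) and 1 with array weights (Cd70). Array weights gave 1 in CD70TG*Ifng-/- against CD70TG, 2 in CD70TG*Ifng-/- against WT and 2 in CD70TG against Ifng-/-. In CD70TG*Ifng-/- against WT the count was also 1 with quantile normalization and 3 with only the groups compared, and 0 to 1 without 1 array each, as in CD70TG against Ifng-/-. Leaving out CD70TG 3 and Ifng-/- 2 together, chosen after seeing the data, gave 2 in CD70TG*Ifng-/- against WT and 2 in CD70TG against Ifng-/-. The cause of these changes was not tested.

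With the replicate block, which rests on shared numbers and on no pairing in the labels, 1 of the 8 genes passed in CD70TG*Ifng-/- against Ifng-/-, Ifngr1 (adjusted p = 0.0455), and Ifngr2 did not (adjusted p = 0.0800). Over all genes the block gave 1668 calls instead of 2179 in CD70TG against WT, 401 instead of 499 in CD70TG*Ifng-/- against Ifng-/-, and 128 instead of 377 in the interaction.

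Over the alternatives that tested all genes the calls ranged from 853 to 5337 in CD70TG against WT (main 2179), 297 to 1439 in CD70TG*Ifng-/- against Ifng-/- (499), 1 to 42 in Ifng-/- against WT (1), 136 to 3519 in CD70TG*Ifng-/- against CD70TG (282), 171 to 2044 in CD70TG*Ifng-/- against WT (357), 398 to 2390 in CD70TG against Ifng-/- (647) and 82 to 2040 in the interaction (377). The filter to the higher level class, which tested fewer genes, gave 1173, 71, 9, 155, 198, 213 and 301 in the same order. Centring within level classes moved the share of higher calls from 24.9% to 11.2% in CD70TG*Ifng-/- against WT.

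Signs that turned belonged to differences that did not pass. Under median centring they were Cd27 in CD70TG*Ifng-/- against Ifng-/- (-0.017) and in the interaction (0.013), Socs1 in CD70TG*Ifng-/- against CD70TG (-0.00011) and Ifng in CD70TG*Ifng-/- against WT (-0.0075). Under quantile normalization they were Cd27 in CD70TG against WT (0.0045), in CD70TG*Ifng-/- against Ifng-/- (-0.028) and in the interaction (0.033), Socs1 in CD70TG*Ifng-/- against CD70TG (-0.011) and Ifng in CD70TG*Ifng-/- against WT (-0.012). Under centring within level classes they were Cd27 in the same 3 (0.013, -0.021 and 0.034), Socs1 in CD70TG*Ifng-/- against CD70TG (-0.0088) and Jak1 in Ifng-/- against WT (-0.090). With the probe set of largest spread, Socs3 in CD70TG*Ifng-/- against CD70TG was -0.0066.

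With array weights the sign turned for Ifngr1 in CD70TG against WT (-0.14), Jak1 in CD70TG*Ifng-/- against Ifng-/- (0.0011) and Ifng-/- against WT (-0.034), Cd27 in CD70TG*Ifng-/- against CD70TG (0.079), CD70TG*Ifng-/- against WT (0.026) and CD70TG against Ifng-/- (-0.041), Ifng in CD70TG*Ifng-/- against CD70TG (-0.0021) and against WT (-0.0051), and Socs3 in CD70TG against Ifng-/- (-0.037). Without CD70TG 3 and Ifng-/- 2 it turned for Ifngr1 in CD70TG against WT (-0.20). It also turned in CD70TG*Ifng-/- against Ifng-/- for Cd27 (-0.096), Jak1 (0.0034), Socs1 (-0.060) and Socs3 (-0.0035), and in Ifng-/- against WT for Jak1 (-0.0053) and Cd27 (0.043). In CD70TG against Ifng-/- it turned for Cd27 (-0.13), Socs1 (-0.15) and Socs3 (-0.096), in CD70TG*Ifng-/- against CD70TG for Cd27 (0.030), and in the interaction for Cd70 (0.036) and Cd27 (0.013).

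Leaving out 1 array turned the sign within these ranges. For Cd27 they were -0.083 to 0.037 in CD70TG against WT, -0.096 to 0.071 in CD70TG*Ifng-/- against Ifng-/-, -0.12 to 0.043 in Ifng-/- against WT, -0.10 to 0.030 in CD70TG*Ifng-/- against CD70TG, -0.052 to 0.11 in CD70TG against Ifng-/- and -0.086 to 0.087 in the interaction. For Cd70 they were -0.044 to 0.22 in Ifng-/- against WT and -0.24 to 0.022 in the interaction, and for Ifng -0.11 to 0.018 in CD70TG against WT, -0.030 to 0.13 in CD70TG*Ifng-/- against CD70TG and -0.077 to 0.077 in CD70TG*Ifng-/- against WT. Ifngr1 ran from -0.20 to 0.16 in CD70TG against WT, Ifngr2 from -0.13 to 0.30 in Ifng-/- against WT, and Jak1 from -0.064 to 0.033 in CD70TG*Ifng-/- against Ifng-/-, -0.050 to 0.028 in CD70TG*Ifng-/- against WT and -0.041 to 0.062 in Ifng-/- against WT. Socs1 ran from -0.12 to 0.089 in CD70TG*Ifng-/- against CD70TG, -0.060 to 0.12 in CD70TG*Ifng-/- against Ifng-/- and -0.076 to 0.17 in CD70TG against Ifng-/-, and Socs3 from -0.0035 to 0.18 in CD70TG*Ifng-/- against Ifng-/- and -0.056 to 0.12 in CD70TG against Ifng-/-.

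Of the 8 genes 7 lie in the lower level class, so the filter to the higher class gave values for Jak1 alone and no count, and a fit of only the groups compared cannot give the interaction. Centred values carry no signal over background, so whether a gene without a difference was detected cannot be read.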
